A study of Xenopus tropicalis with 36 samples.

Results

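The genes described here encode the subunits, activators, inhibitor and assembly chaperones of the proteasome in *X. tropicalis* embryos. They were taken as every entry of the deposited count table whose symbol begins with *psma*, *psmb*, *psmc*, *psmd*, *psme*, *psmf* or *psmg* followed by a digit, which gave 46 of 25774 genes. The rule used names alone and no measured value. RNA of whole embryos came from a KD and a KO experiment, both on out-bred Nigerian frogs, which asked how embryos depleted of the *Brachyury* paralogs *t* and *t2* by morpholinos (MOs) compare with embryos mutant for both genes. In the KD experiment, siblings either stayed uninjected or were given 18 ng of a control MO (cMO) or of a mixture of MOs against *t* and *t2* (*t*/*t2* MO). By the paper, the *t* and *t2* MOs carried a sulforhodamine tag and had a higher GC content than the cMO, which was untagged. In comparisons of *t*/*t2* MO with cMO embryos, these differences cannot be told apart from the loss of *t* and *t2*. The KO experiment used siblings from crosses of double heterozygotes, which were wild-type, *t*/*t2* het (1 mutant copy of each paralog, the alleles te1.2D and t2e3.7D) or *t*/*t2* KO (homozygous for both alleles), and none was injected. Both experiments had 3 clutches, from frogs D, E and F and from crosses 1, 2 and 9, and each clutch gave 1 library per condition at stage 26 and at stage 34, or 36 libraries in all. A library was made from 5 to 10 sibling embryos pooled together, so p-values measure the spread between libraries of pooled embryos. Tests of condition over both stages treat the stage 26 and stage 34 libraries of a clutch as independent, although each experiment had 3 clutches. Pairs of siblings counted for a condition likewise take each clutch at both stages. The KO alleles represent a single mutant line. In libraries of whole embryos, fewer cells of a type and less RNA per cell cannot be told apart.

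The proteasome is the barrel-shaped protease that degrades most short-lived and damaged proteins of a cell after they have been tagged with ubiquitin. Its 20S core consists of outer rings of alpha subunits (*psma* genes), which gate the entrance, and inner rings of beta subunits (*psmb* genes), of which a few carry the proteolytic sites. The 19S cap binds ubiquitinated proteins, removes the ubiquitin and threads the unfolded chain into the core, and it is made of a base with a ring of ATPases (*psmc* genes), large scaffold proteins and a lid (*psmd* genes). Other activators (*psme* genes) can replace the cap, *psmf1* encodes an inhibitor of the core, and dedicated chaperones (*psmg* genes for the core, *psmd5*, *psmd9* and *psmd10* for the base of the cap) assist assembly without staying in the finished particle.

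The label was checked against the deposited annotation of assembly v7.1. Of the 46 genes, 44 had a gene model, and 42 carried a gene ontology term naming the proteasome. The inhibitor *psmf1* and the main *psmb4* entry had no model, so their overlaps with other genes could not be checked. They fall under 45 symbols, because *psmb4* was given to 2 entries, of which Xetro.K05087 had 0 to 0.714 CPM (normalized fragment counts relative to library size). The symbol *psmc3ip* matched the rule although it encodes no subunit but a recombination cofactor named for its binding to a 19S ATPase. It also carried a proteasome term, as did all 42 genes with any ontology term. The term therefore does not separate subunits from other genes. With Xetro.K05087 and *psmc3ip* set aside, the 20S core was represented by 13 subunits (6 alpha and 7 beta) and the 19S cap by 15 (6 ATPases, 2 scaffolds and 7 lid subunits), and these 28 are called the 20S and 19S subunits below. The subunits *psma1*, *psma8*, *psmb10*, *psmd4* and *psmd12* were not matched and were not analysed here.

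A mean of more than 7 normalized counts, the threshold for a call, was passed by 42 of the 46 genes. The other 4 are beta-type genes, and 3 of them replace the catalytic subunits of the core in mammals, *psmb8* and *psmb9* in immune cells and under interferon, and *psmb11* in the thymus. Over all 36 libraries, *psmb11* had 0 to 3 fragments per library and was at 0 in 24, *psmb9* had 0 to 5 and was at 0 in 14, and *psmb8* had 0 to 15 and was at 0 in 12. The fourth, *psmb7.2*, had 0 to 17 fragments and was at 0 in 7 libraries. A level of 3 counts corresponded to 0.0560 to 0.107 CPM, and no direction is given for these genes.

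The libraries held 30225504 to 52401214 fragments assigned to genes (median 37215941). Transcripts of both targeted genes were lower in *t*/*t2* KO than in wild-type embryos, and lower in *t*/*t2* MO than in uninjected embryos. In *t*/*t2* KO embryos *t2* had 0 to 0.108 CPM, against 16.9 to 26.3 CPM in wild-type siblings, and *t* had 1.02 to 3.88 against 10.3 to 23.4 CPM. In *t*/*t2* het embryos *t* was above the wild-type range, with 30.3 to 32.5 against 17.2 to 23.4 CPM at stage 26 and 15.7 to 18.8 against 10.3 to 11.5 CPM at stage 34, and *t2*, with 13.8 to 23.0 CPM over both stages, overlapped it. In *t*/*t2* MO embryos *t2* had 0.124 to 1.59 CPM against 17.7 to 39.5 CPM in uninjected embryos, and *t* had 13.6 to 18.4 against 23.6 to 27.5 CPM at stage 26 and 4.40 to 5.41 against 9.36 to 10.2 CPM at stage 34. The uninjected library of frog F at stage 26 stood apart from the others of its group, with a summed level of the 28 subunits of 3340 CPM against 3789 and 3902 CPM. It also had the highest ribosomal share of the 36 libraries, 0.462% against a median of 0.113%. The stage change in uninjected embryos and the stage dependence of the *t*/*t2* MO effect are given with and without it. Other comparisons with uninjected embryos were refitted only without frog F as a whole.

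For uninjected embryos at stage 26, levels of the subunits of the 20S core and 19S cap were related to transcript length. Levels per kilobase of the longest annotated transcript ranged from 35.7 CPM per kb for the alpha subunit *psma2* to 131 CPM per kb for the lid subunit *psmd6*, among those with a gene model. The ATPase *psmc6* followed with 107 and the catalytic beta subunit *psmb5*, which carries the chymotrypsin-like site, with 105 CPM per kb. The scaffolds *psmd1* and *psmd2* lay between 85.4 and 86.9 CPM per kb. The assembly chaperones were lower than these subunits. The core chaperones *psmg1*, *psmg2*, *psmg4* and *psmg3* had 28.8, 20.1, 17.4 and 11.5 CPM per kb, and the base chaperones *psmd9*, *psmd10* and *psmd5* had 8.96, 7.72 and 7.51 CPM per kb. Among the activators the nuclear *psme3* had 39.3 and *psme4* 16.0 CPM per kb, whereas *psme1* and *psme2*, whose products form an activator induced by interferon in mammals, had 2.11 and 0.400 CPM per kb. These levels are descriptions and were not tested against each other, and they depend on the length of the annotated transcripts.

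**Figure D1:**
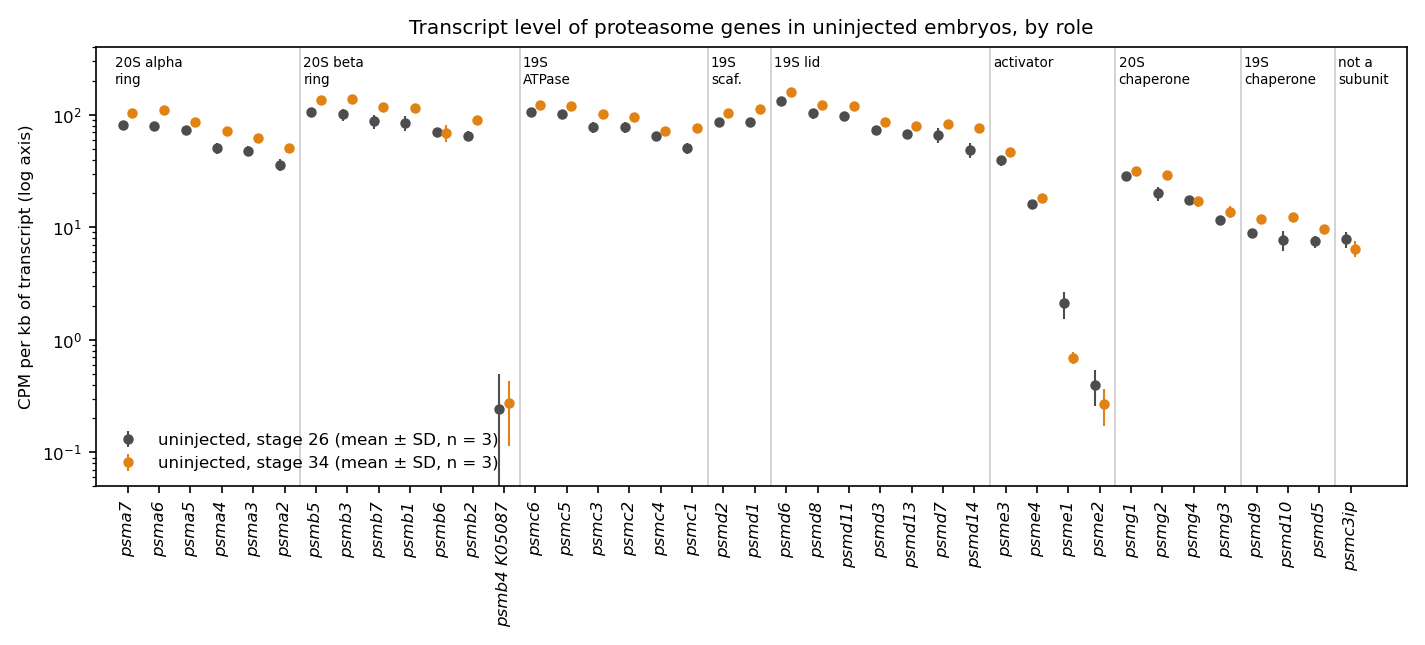
Level of each proteasome gene with a gene model in uninjected embryos, in CPM per kilobase of the longest annotated transcript on a log axis, grouped by role. Points are means and bars SDs of 3 libraries, at stage 26 (grey) and stage 34 (orange). At stage 26 the 20S and 19S subunits sit at or above 35.7 CPM per kb, and the chaperones, *psme1*, *psme2*, *psmc3ip* and the second *psmb4* entry (K05087) sit below.

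Between stages 26 and 34, most proteasome genes rose in uninjected embryos. By edgeR's quasi-likelihood test at an FDR of 10%, 33 of the 42 genes were higher at stage 34 and 2 were lower, whereas 29.4% of all 17987 genes past the count threshold were higher and 26.9% were lower. The median log2 change of the 42 genes was 0.32, that of all genes -0.0035. The changes were mostly small, as 4 of the 42 genes also passed 1.5-fold, against 31.9% of all genes. Of the 28 subunits, 27 rose, with a median log2 change of 0.37, 12 of 13 in the core (median 0.44) and 15 of 15 in the cap (median 0.28). Their summed level was 3902, 3789 and 3340 CPM at stage 26 (frogs D, E and F) and 4732, 4653 and 4581 CPM at stage 34, so that the groups did not overlap and the lowest value belonged to frog F.

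The largest rises were those of a base chaperone, a lid subunit and an ATPase. The chaperone *psmd10* (gankyrin in mammals, scaffold 8 from 26600852 to 26605558 on the minus strand of v7.1) had 13.0, 12.0 and 8.62 CPM at stage 26 and 18.4, 18.8 and 17.0 CPM at stage 34. Every library of the later stage exceeded every library of the earlier, and the log2 change was 0.71 ± 0.14 (SE; adjusted p = 0.000312). Its model shares 39 of 1450 exonic bases with *atg4a* on the other strand, which rose by 1.01 on the log2 scale, and the part of those fragments in the change was not tested. The lid subunit *psmd14* (scaffold 9, 13533180 to 13581949, plus strand), the deubiquitinase that frees substrates of ubiquitin, had 92.5, 86.4 and 68.7 CPM at stage 26 and 138, 129 and 119 CPM at stage 34. Again the stages did not overlap, with a log2 change of 0.66 ± 0.09 (adjusted p = 1.04e-05). Its model shares 816 of 1700 exonic bases with Xetro.I00264 on the other strand, which had 0 to 0.0465 CPM in uninjected embryos. The ATPase *psmc1* had 166, 153 and 131 CPM at stage 26 and 238, 225 and 215 CPM at stage 34. This was a log2 change of 0.61 ± 0.08 (adjusted p = 6.22e-06), and 279 of its 2977 exonic bases are shared with *mrps10*, which rose by 0.43. A further overlap of 252 bases is with Xetro.H01229, which had 0.171 to 0.957 CPM in uninjected embryos and rose by 2.04. The part of these overlaps in the changes was not tested.

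The catalytic beta subunits did not all rise. The gene of the chymotrypsin-like site, *psmb5*, went from 117, 111 and 100 CPM to 138, 141 and 142 CPM (log2 change 0.38 ± 0.07, adjusted p = 0.000227). The gene of the trypsin-like site, *psmb7*, went from 102, 93.1 and 77.3 CPM to 123, 126 and 116 CPM (0.44 ± 0.09, adjusted p = 0.000443). In both, every clutch was higher at stage 34. The gene of the caspase-like site, *psmb6*, was the exception among the 28 subunits, with 45.8, 44.8 and 43.1 CPM at stage 26 and 38.4, 40.4 and 52.0 CPM at stage 34. It was lower at stage 34 in frogs D and E and higher in frog F, and its log2 change of -0.02 did not pass the test.

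The only genes that fell with stage in uninjected embryos were an activator and the inhibitor. The activator *psme1* (Xetro.A01555, scaffold 1 from 86255753 to 86271350, plus strand) had 2.79, 4.64 and 4.80 CPM at stage 26 and 1.34, 1.16 and 1.48 CPM at stage 34. The stages did not overlap, and the log2 change was -1.60 ± 0.24 (adjusted p = 2e-05), or 0.330-fold. It shares 682 of 2255 exonic bases with *fam158a* on the other strand, whose log2 change was 0.05 (adjusted p = 0.891). The inhibitor *psmf1* had 5.79, 5.62 and 5.22 CPM at stage 26 and 3.48, 4.39 and 4.54 CPM at stage 34, a change of -0.41 ± 0.17 (adjusted p = 0.0758) that was in the same direction in the 3 clutches. This call was lost in each fit without 1 of the 3 frogs. The partner activator *psme2* (-0.54), the core chaperones *psmg1* (0.16), *psmg3* (0.26) and *psmg4* (-0.03) and *psmc3ip* (-0.27) did not pass the test, whereas the base chaperones *psmd5* (0.39) and *psmd9* (0.41) rose. With the uninjected stage 26 library of frog F left out, an alternative chosen after seeing the data, 28 genes were higher and 1 (*psme1*) was lower, and the call on *psmf1* was lost. Markers of other cell types also moved with stage in uninjected embryos, as 5 of 6 erythroid markers rose (median log2 change 1.46) and 3 of 3 germ cell markers fell (median -0.91). Of all genes, 29.4% rose and 26.9% fell. Summed levels fell without overlap from 1796 to 2299 CPM at stage 26 to 640 to 926 CPM at stage 34 for notochord markers, from 19820 to 27744 CPM to 12751 to 16532 CPM for epidermis markers and from 454 to 631 CPM to 291 to 353 CPM for leukocyte and myeloid markers. The part of these cell types in the proteasome changes was not tested.

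**Figure D2:**
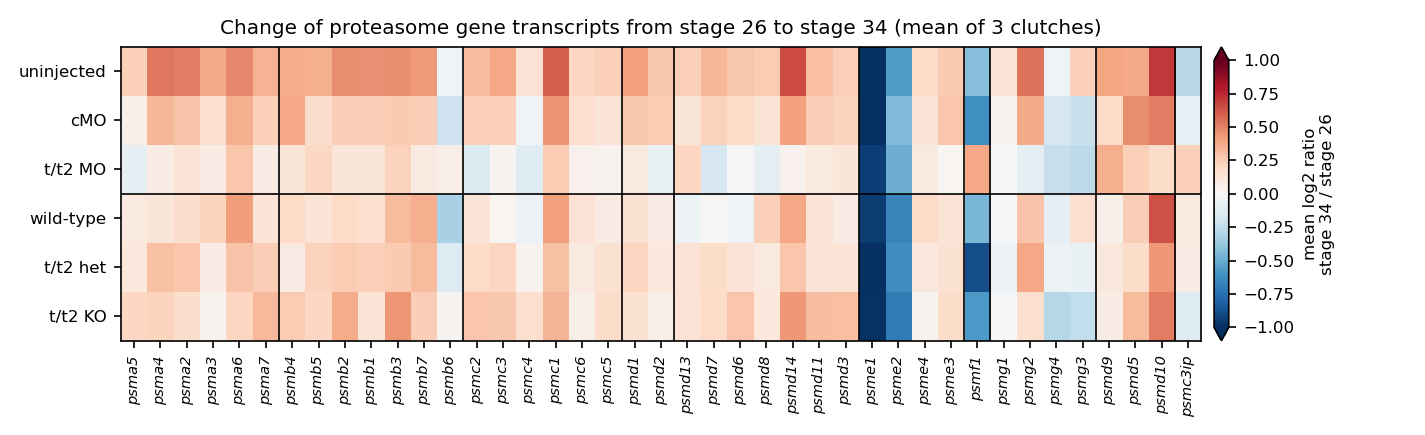
Mean log2 ratio of stage 34 to stage 26 within a clutch (n = 3 clutches) for each proteasome gene past the count threshold that has a symbol of its own, in the 3 conditions of the KD and the 3 of the KO experiment, grouped by role (red, higher at stage 34; blue, lower; colours end at a log2 ratio of 1). The uninjected row is mostly red, with *psme1* as its strongest blue cell, and the *t*/*t2* MO row is paler for most 20S and 19S subunits.

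The same stage comparison in wild-type embryos of the KO experiment gave fewer calls. Of the 42 genes, 6 were higher and 1 was lower at stage 34 (edgeR's quasi-likelihood test, FDR of 10%), against 15.1% and 11.6% of all genes. The share called higher was thus near that of all genes, and the share called lower was below it. The median log2 change was 0.13 against -0.012 for all genes. The genes that rose were *psmd10* (0.63, adjusted p = 0.0192), *psmc1* (0.41, adjusted p = 0.016), *psma6* of the alpha ring (0.41, adjusted p = 0.0132), *psmd14* (0.39, adjusted p = 0.0613), *psmb7* (0.36, adjusted p = 0.0315) and *psmb3* (0.32, adjusted p = 0.0683). All 6 were also higher at stage 34 in uninjected embryos, where 33 of the 42 genes were called higher. In wild-type embryos *psmd10* went from 11.4, 15.0 and 12.9 CPM to 20.3, 22.4 and 18.4 CPM (crosses 1, 2 and 9), and *psme1*, the gene that fell, from 3.24, 2.61 and 2.49 CPM to 1.25, 1.46 and 1.59 CPM (-0.96, adjusted p = 0.0172). In neither gene did the stages overlap. Without cross 1, 3 of the 42 genes passed, and without cross 2, 2 passed. The difference between the stage changes of uninjected and of wild-type embryos was not tested.

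Clutch by clutch, the median log2 ratio of the 28 subunits between stages was 0.269, 0.301 and 0.496 in uninjected embryos of frogs D, E and F. It was 0.203 and 0.233 in wild-type embryos of crosses 1 and 2 but -0.045 in those of cross 9. In the remaining conditions it was 0.268, 0.188 and 0.235 in cMO embryos, 0.316, 0.104 and 0.140 in *t*/*t2* het embryos and 0.396, 0.142 and 0.096 in *t*/*t2* KO embryos. The *t*/*t2* MO embryos had 0.121, 0.066 and 0.062, below each uninjected and each cMO clutch.

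**Figure D3:**
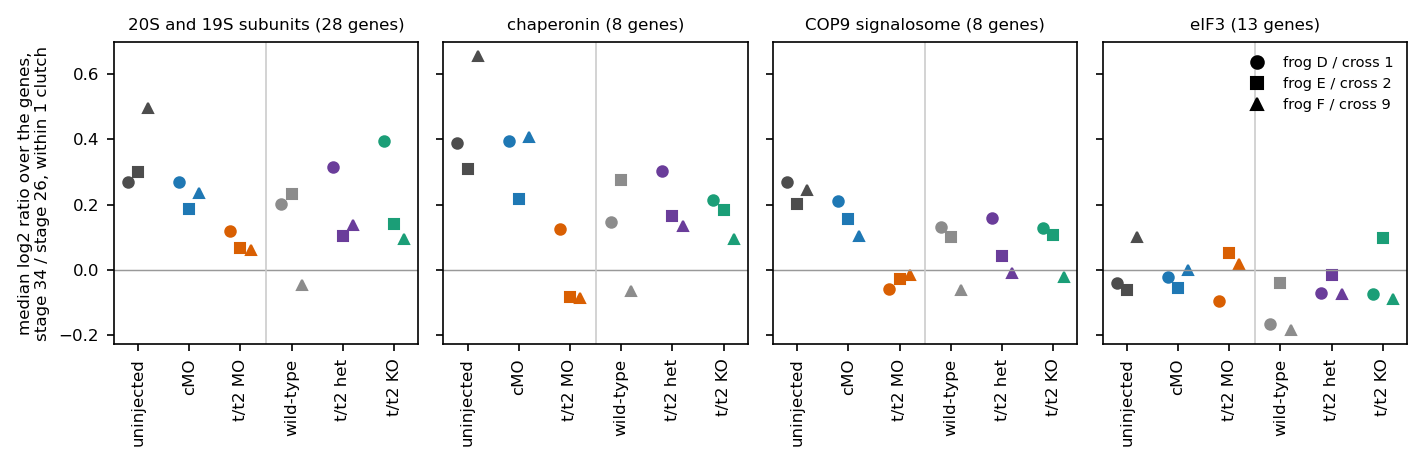
Median log2 ratio of stage 34 to stage 26 within each clutch (points, n = 3 per condition) over the 28 subunits of the 20S core and 19S cap, and over the genes of the chaperonin (8), the COP9 signalosome (8) and eIF3 (13). For the 28 subunits the uninjected clutches lie between 0.269 and 0.496, the *t*/*t2* MO clutches between 0.062 and 0.121, and wild-type cross 9 at -0.045.

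In the test over both stages, a single one of the 42 genes was called for cMO injection, the gene of a 19S scaffold. Over both stages, 0 genes were higher and 1 was lower than in uninjected siblings (edgeR's quasi-likelihood test, FDR of 10%), against 1.85% higher and 2.13% lower of all genes. This count is near the share of all genes. At stage 26, 2 genes were higher and 2 lower in every cMO library than in every uninjected one, against 6.73% and 7.99% of all genes. At stage 34, 1 was higher and 13 were lower in this way, against 11.7% and 10.8%. The scaffold gene *psmd2* (scaffold 5, 10444966 to 10458021, plus strand, 19 exons), whose product docks ubiquitin receptors, had 301, 293 and 260 CPM in uninjected and 226, 234 and 231 CPM in cMO embryos at stage 26. At stage 34 it had 352, 339 and 336 CPM in uninjected and 275, 271 and 281 CPM in cMO embryos. At neither stage did the groups overlap, and the log2 change was -0.31 ± 0.07 (adjusted p = 0.017, lower in 6 of 6 pairs of siblings), about the same at stage 26 (-0.30 ± 0.12, SD over 3 clutches) as at stage 34 (-0.31 ± 0.05). In *t*/*t2* MO embryos *psmd2* had 310, 299 and 317 CPM at stage 26 and 320, 272 and 294 CPM at stage 34, a log2 change of -0.06 from uninjected embryos. The call on *psmd2* was lost without frog D and without frog E.

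The *t*/*t2* MO lowered a lid subunit, the inhibitor and a core chaperone and raised a base chaperone, while most subunits differed little from those of uninjected siblings. At an FDR of 10% (edgeR's quasi-likelihood test), 2 of the 42 genes were higher and 8 were lower, against 17.8% higher and 23.8% lower of all genes. Among these 10 were 4 that passed 1.5-fold as well, or 4 of the 42 genes, against 15.2% of all genes. Compared with cMO embryos, 4 genes were higher and 11 lower, against 17% and 22.3% of all genes, and the same 4 passed 1.5-fold, against 13.6%. The shares of proteasome genes called over both stages were thus near or below those of all genes in both comparisons. This test averages stages that differed. At stage 26, 13 of the 42 genes were higher and 9 lower in every *t*/*t2* MO library than in every uninjected one, against 14.4% and 18.2% of all genes. At stage 34, 3 were higher and 24 lower in this way, against 21.6% and 25.4%.

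The largest change was that of *psmd13* (Xetro.D00287, scaffold 4 from 12909762 to 12920747 on the minus strand, 12 exons), which encodes a structural subunit of the 19S lid. At stage 26 it had 161, 153 and 137 CPM in uninjected, 155, 158 and 155 CPM in cMO and 66.0, 52.4 and 58.5 CPM in *t*/*t2* MO embryos (frogs D, E and F). At stage 34 it had 182, 176 and 172 CPM in uninjected, 170, 166 and 172 CPM in cMO and 79.5, 61.6 and 65.1 CPM in *t*/*t2* MO embryos. Every *t*/*t2* MO library lay below every other library of the KD experiment. The log2 change from uninjected embryos was -1.37 ± 0.07 (SE; adjusted p = 4.1e-12, lower in 6 of 6 pairs), or 0.387-fold, with -1.35 ± 0.17 at stage 26 and -1.37 ± 0.16 at stage 34 (SD, n = 3 clutches). The model shares 54 of 2220 exonic bases with *sirt3.1* on the other strand, which had 3.69 to 4.61 CPM in uninjected embryos and a log2 change of 0.18 (adjusted p = 0.258). Among the other lid genes the largest change was that of *psmd6*, with -0.22 ± 0.06 (adjusted p = 0.00485).

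The inhibitor *psmf1* was at lower counts. It had 5.79, 5.62 and 5.22 CPM in uninjected and 1.48, 1.69 and 1.67 CPM in *t*/*t2* MO embryos at stage 26, and 3.48, 4.39 and 4.54 against 2.47, 1.58 and 2.43 CPM at stage 34. The groups did not overlap at either stage, and the log2 change was -1.34 ± 0.17 (adjusted p = 3.54e-06). The chaperone *psmg3* (Xetro.I01240, scaffold 9 from 71147002 to 71150690, plus strand, 3 exons), which acts early in the assembly of the alpha ring, had 7.53, 7.53 and 6.98 CPM in uninjected and 5.01, 4.29 and 4.47 CPM in *t*/*t2* MO embryos at stage 26. At stage 34 it had 7.52, 9.04 and 9.60 against 4.13, 3.91 and 3.46 CPM. It too was lower in 6 of 6 pairs, with a log2 change of -0.95 ± 0.12 (adjusted p = 2.46e-06). The other core chaperones did not pass the test, with log2 changes of -0.02 (*psmg1*), -0.19 (*psmg2*) and -0.05 (*psmg4*).

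The base chaperone *psmd5* (Xetro.H00072, scaffold 8 from 3438755 to 3448137, minus strand, 11 exons) went the other way. It had 23.9, 21.4 and 18.8 CPM in uninjected and 34.3, 33.9 and 36.8 CPM in *t*/*t2* MO embryos at stage 26, and 26.7, 27.0 and 29.2 against 41.7, 39.9 and 42.2 CPM at stage 34. Every *t*/*t2* MO library exceeded every uninjected one, and the log2 change was 0.63 ± 0.07 (adjusted p = 4.66e-07), or 1.55-fold. The other base chaperones *psmd9* (-0.13) and *psmd10* (-0.24) did not pass against uninjected embryos and were lower against cMO embryos (-0.19 and -0.30). The call on *psmd9* was lost in each fit without 1 of the 3 frogs and that on *psmd10* without frog E.

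**Figure D4:**
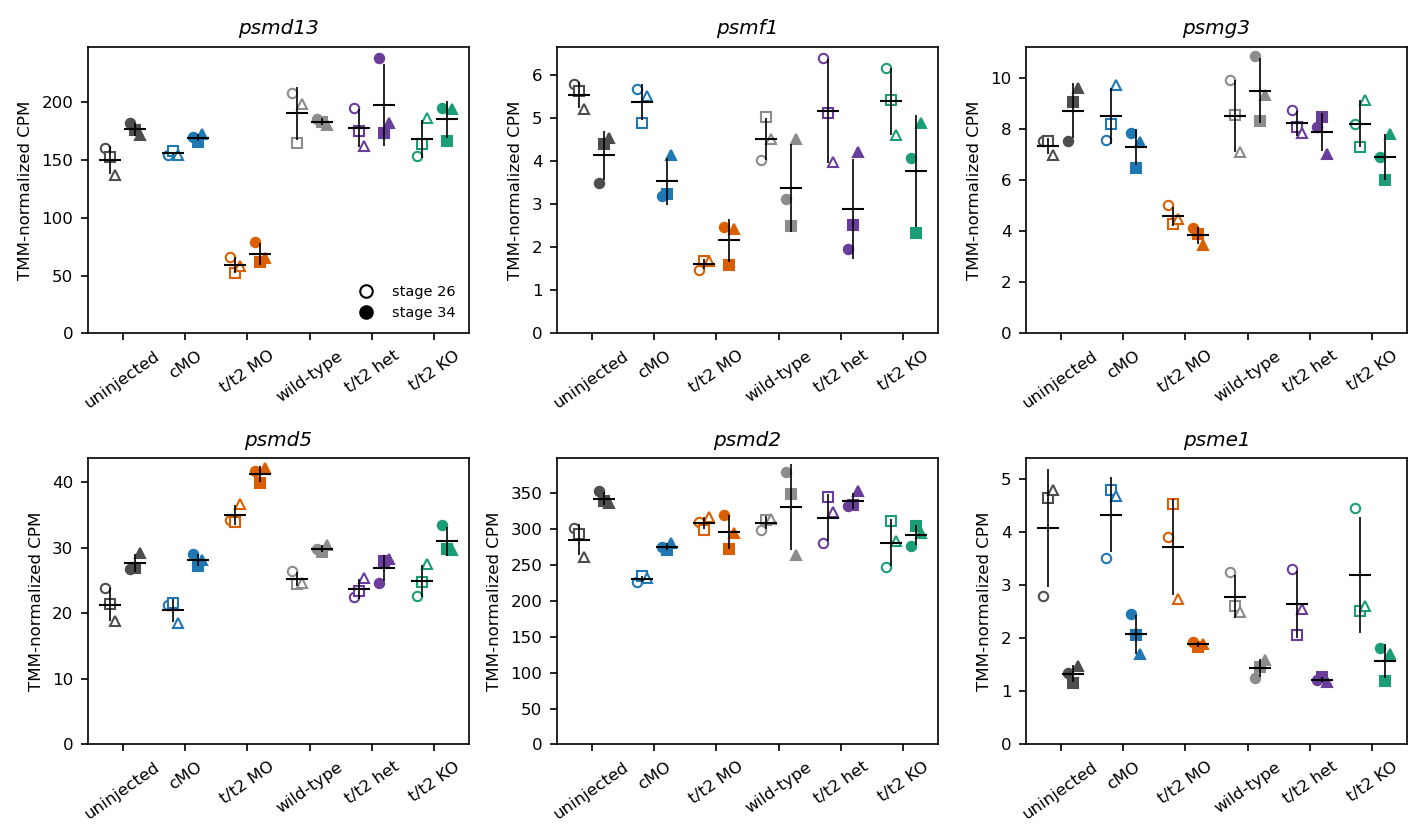
Level of *psmd13*, *psmf1*, *psmg3*, *psmd5*, *psmd2* and *psme1* in each of the 36 libraries (points, CPM on an axis from 0, with the mean and SD of 3 clutches) by condition and stage (open, stage 26; filled, stage 34; circle, square and triangle, frogs D, E and F or crosses 1, 2 and 9). The *t*/*t2* MO libraries of *psmd13* lie between 52.4 and 79.5 CPM, below all other libraries, and those of *psmd5* lie above the uninjected ones.

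The remaining calls were small. The alpha subunit *psma5* was lower by 0.37 on the log2 scale (log2 change -0.37 ± 0.07, adjusted p = 0.000205), and 50 of its 2637 exonic bases are shared with *sypl2*, whose level fell by 1.13 and reached 220 CPM in uninjected embryos. The activator *psme3* (-0.32 ± 0.08, adjusted p = 0.00349), the ATPase *psmc6* (-0.23 ± 0.06, adjusted p = 0.00629) and the catalytic *psmb6* (-0.23 ± 0.08, adjusted p = 0.0447) were lower, and the alpha subunit *psma6* was higher (0.19 ± 0.05, adjusted p = 0.0112). All were in the same direction in 6 of 6 pairs, apart from *psmb6* with 5 of 6. The catalytic *psmb5* (-0.07) and *psmb7* (0.07), the activators *psme1* (0.14), *psme2* (0.49 ± 0.29, adjusted p = 0.235) and *psme4* (-0.07) and *psmc3ip* (-0.16) did not pass. Without frog E, 6 of the 42 genes passed against uninjected embryos.

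Skeletal muscle markers moved with the *t*/*t2* MO. Of 10 such genes, 9 were lower (median log2 change -1.16), and their summed level was 12815 to 15576 CPM in uninjected and 5992 to 8690 CPM in *t*/*t2* MO embryos at stage 26, and 12118 to 14243 against 4240 to 5300 CPM at stage 34. In *t*/*t2* KO embryos 9 of the 10 were also lower (median -1.16), against 5.6% of all genes called in either direction. Of 9 leukocyte and myeloid markers, 4 were higher and 1 was lower in *t*/*t2* MO embryos, with a summed level of 454 to 631 CPM in uninjected and 493 to 701 CPM in *t*/*t2* MO embryos at stage 26, and 291 to 353 against 520 to 610.2 CPM at stage 34. Of 5 notochord markers 2 were lower, with a summed level of 1796 to 2299 CPM in uninjected and 927 to 1225 CPM in *t*/*t2* MO embryos at stage 26, and 640 to 926 against 613 to 639 CPM at stage 34. Of 6 erythroid markers 2 were higher and 1 was lower, with 1890 to 2372 CPM in uninjected and 2439 to 3263 CPM in *t*/*t2* MO embryos at stage 34. At stage 26 their sums overlapped, with 400 to 772 CPM in uninjected and 622 to 732 CPM in *t*/*t2* MO embryos. Of all genes, 17.8% were higher and 23.8% lower, and the counts of so few markers were not tested against these shares. The share of unaligned reads was also higher in *t*/*t2* MO embryos, with 30.9% to 33.4% against 28.9% to 30.2% in uninjected embryos at stage 26 and 33.1% to 34.0% against 30.2% to 31.4% at stage 34, while cMO embryos had 29.9% to 30.8% and 32.4% to 34.0%. No marker was at 0 in a whole group, and the part of these cell types and of the unaligned share in the changes of proteasome genes was not tested.

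In the KO experiment no proteasome gene passed the test for genotype. Between *t*/*t2* KO and wild-type siblings, 0 of 42 were called by edgeR's quasi-likelihood test at an FDR of 10%, against 5.6% of all genes. DESeq2 called 0 as well, and 1 gene had an unadjusted p under 0.05. The median log2 change was -0.055, against 0.0043 for all genes. An approximate 95% interval of the change lay within 1.5-fold in both directions for 41 of the 42 genes. These intervals rest on a normal approximation and are narrower than the quasi-likelihood test implies. For *psmd1* the interval of -0.361 to -0.00683 left out 0, although that test gave an unadjusted p of 0.0527. The count of 41 is therefore an upper limit. Between *t*/*t2* het and wild-type siblings 0 of 42 passed, against 0.0222% of all genes. Here 0 genes had an unadjusted p under 0.05 and DESeq2 called 0, with 40 of the 42 approximate intervals within 1.5-fold, again an upper limit.

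The 4 genes with the largest *t*/*t2* MO changes had these values in the KO experiment. For *psmd13*, wild-type siblings had 209, 165 and 199 CPM and *t*/*t2* KO embryos 154, 164 and 186 CPM at stage 26 (crosses 1, 2 and 9), and 186, 183 and 180 against 195, 167 and 194 CPM at stage 34. The groups overlapped at both stages, and the log2 change over both stages was -0.10 (approximate 95% interval -0.28 to 0.08). For *psmd5* the change was 0.00 (-0.15 to 0.16), and for *psmf1* it was 0.18 (-0.20 to 0.57). For *psmg3* the change was -0.27 (-0.51 to -0.03), lower in 5 of 6 pairs, and it did not pass after adjustment over all genes (adjusted p = 0.338).

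The *t*/*t2* MO effect and the *t*/*t2* KO effect were compared directly in a model of both experiments. They differed for 7 of 42 genes, 2 with a higher and 5 with a lower log2 change in the KD than in the KO experiment (edgeR's quasi-likelihood test, FDR of 10%), against 7.17% and 9.39% of all genes. These counts were near the shares of all genes. Among the 7 were 4 that also differed by at least 1.5-fold, or 4 of the 42 genes, again near the share of all genes (8.97%). These were *psmf1* (-1.52 ± 0.27, adjusted p = 0.000208), *psmd13* (-1.27 ± 0.11, adjusted p = 2.11e-10), *psmg3* (-0.68 ± 0.16, adjusted p = 0.00568) and *psmd5* (0.63 ± 0.10, adjusted p = 2.74e-05). The other 3 were *psma5* (-0.36 ± 0.10), *psme3* (-0.33 ± 0.11) and *psma6* (0.25 ± 0.09). The experiments also differed in parents, which cannot be told apart from how *t* and *t2* were lost. Injection of the cMO, measured within the KD experiment, left these 4 genes with log2 changes of -0.12 (*psmf1*), 0.00 (*psmd13*), -0.03 (*psmg3*) and -0.01 (*psmd5*) from uninjected embryos, of which none passed the test, and *t*/*t2* MO embryos differed from cMO embryos by -1.22, -1.37, -0.92 and 0.64. The call on *psma6* was lost in each fit without 1 clutch other than cross 9, and that on *psme3* without cross 9, frog E or frog F. Without frog E, where *psma5* was lost too, 4 genes passed.

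**Figure D5:**
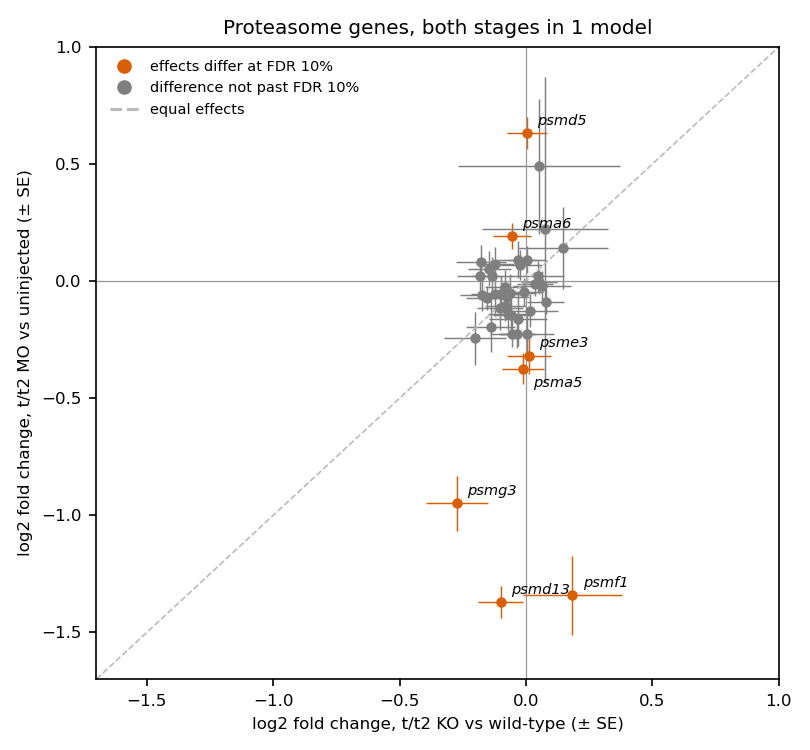
Log2 change of each of the 42 proteasome genes in *t*/*t2* KO against wild-type siblings (horizontal axis) and in *t*/*t2* MO against uninjected embryos (vertical axis), with bars of 1 SE, and the 7 genes whose effects differed in orange. The genes *psmd13*, *psmf1*, *psmg3* and *psmd5* lie at -1.37, -1.34, -0.95 and 0.63 on the vertical axis and between -0.27 and 0.18 on the horizontal axis.

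The effect of the *t*/*t2* MO on proteasome genes differed between stages. The change from uninjected embryos was lower at stage 34 than at stage 26 for 16 of the 42 genes and higher for 1 (interaction of stage and condition, edgeR's quasi-likelihood test, FDR of 10%), against 5.34% and 4.45% of all genes. Among these 17 were 3 that differed by at least 1.5-fold, or 3 of the 42 genes, against 5.59% of all genes. The median difference over the 42 genes was -0.29, that over all genes -0.0020. Among the 28 subunits, 15 were called, and they included 4 of 6 alpha subunits, 1 of 7 beta subunits, 4 of 6 ATPases, both scaffolds and 4 of 7 lid subunits. The summed level of the 28 subunits in *t*/*t2* MO embryos was 3957, 3767 and 3863 CPM at stage 26, within or just above the range of uninjected embryos, and 4248, 3865 and 3949 CPM at stage 34, below all 3 uninjected libraries (4732, 4653 and 4581 CPM). The cMO libraries of stage 34, with 4421, 4386 and 4448 CPM, also lay below all 3 uninjected ones and above those of *t*/*t2* MO embryos. The comparison shares its uninjected libraries with the stage comparison above, so the results are not independent of each other.

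Among the genes called lower, the chaperone *psmg2*, which acts with *psmg1* in forming the alpha ring, showed the largest difference. It had 29.8, 30.0 and 23.2 CPM in uninjected and 32.9, 28.1 and 30.0 CPM in *t*/*t2* MO embryos at stage 26, where the groups overlapped, and 40.8, 42.6 and 37.2 against 30.4, 24.5 and 30.4 CPM at stage 34, where they did not. The log2 ratio to uninjected siblings went from 0.14 ± 0.23 to -0.51 ± 0.26 (SD, n = 3 clutches), a difference of -0.67 ± 0.16 (SE; adjusted p = 0.022). The deubiquitinase gene *psmd14* had 97.2, 97.9 and 101 CPM in *t*/*t2* MO embryos at stage 26, above all uninjected libraries of that stage, and 110, 95.4 and 100 CPM at stage 34, below all uninjected libraries of the later stage. Its difference was -0.63 ± 0.13 (adjusted p = 0.0129). The lid subunit *psmd7* (-0.51, adjusted p = 0.0667) and the alpha subunit *psma4* (-0.49, adjusted p = 0.0201) followed among the genes called lower. The inhibitor *psmf1* was the only gene called with a higher ratio at stage 34 (-1.77 ± 0.17 at stage 26 and -0.95 ± 0.49 at stage 34, difference 0.81 ± 0.26, adjusted p = 0.0859).

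These calls rested on few libraries. Without frog E and without frog F 0 of 42 genes passed, and with the uninjected stage 26 library of frog F alone left out 3 passed, namely *psma4*, *psmg2* and *psmd14*. With cMO in place of uninjected embryos, an alternative chosen after seeing the data like the one before it, 3 passed as well (*psmf1*, *psmd2* and *psmg2*), and the median difference was -0.18. Without frog E or without frog F, fewer of all genes passed too, as the shares in the last section show. For the other alternatives no share of all genes is given here, so their counts are not set against it. For the *t*/*t2* KO, 0 of 42 genes had an effect that differed between stages (edgeR's quasi-likelihood test), against 0.0278% of all genes, and 0 had an unadjusted p under 0.05.

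Other genes of the ubiquitin pathway were counted by lists written with earlier results known. Of all genes, as given above, 29.4% rose and 26.9% fell with stage in uninjected embryos, and 17.8% were higher and 23.8% lower in *t*/*t2* MO embryos. Of 10 regulators of proteasome genes, 8 rose between the stages in uninjected embryos and 0 fell, among them *nfe2l2* (1.02), *mafk* (1.02) and *mafg* (0.82), which encode transcription factors that bind antioxidant response elements, and *vcp* (0.39), the gene of the unfoldase that feeds proteins to the proteasome. The log2 change of *nfe2l1*, whose product activates proteasome genes in mammals when the particle is inhibited, was 0.20 and did not pass. In *t*/*t2* MO embryos 1 of the 10 was higher (*mafk*, 0.55). Of 14 partners of the proteasome past the count threshold, 5 rose, near the share of all genes, and 2 fell with stage. Those that rose included the cap's deubiquitinase *uchl5* (0.55), the ubiquitin receptor *adrm1* (0.47) and *pomp* (0.27), the maturation factor of the core. In *t*/*t2* MO embryos 3 partners were higher and 4 lower, with *ube3c* (-0.79) and *ubqln1* (-0.71) as the largest falls, and these counts too were near the shares of all genes. Of 6 genes for ubiquitin and its activating enzymes, 3 rose and 1 fell with stage (*ubb*, -1.92).

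Complexes of related architecture or similar abundance served as comparison. For all genes the shares were 29.4% higher and 26.9% lower with stage, 4.45% and 5.34% for the stage dependence of the *t*/*t2* MO effect, and 5.6% for the *t*/*t2* KO. All 8 genes of the cytosolic chaperonin, the ring that folds actin and tubulin, rose with stage in uninjected embryos (median 0.50) and had a lower *t*/*t2* MO effect at stage 34 than at stage 26 (median -0.49). For the COP9 signalosome, whose subunits resemble those of the 19S lid, 5 of 8 genes rose with stage and 4 had a lower effect at stage 34. For the translation initiation factor eIF3, which shares this architecture, 2 of 13 rose, 1 fell and 0 had an effect that differed between stages. In *t*/*t2* KO embryos 0 genes of these 3 lists passed (edgeR's quasi-likelihood test). Of 9 genes of antigen processing past the count threshold, *psme1* and *psme2* included, 3 rose and 1 fell with stage. In *t*/*t2* MO embryos 2 were higher, the peptidase gene *erap1* (1.79) and *irf1*, a transcription factor gene of the interferon response. Of all genes 17.8% were higher in *t*/*t2* MO embryos. The counts of 3 and 2 were near the shares of all genes.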

How the data were processed

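Poly(A) RNA of 36 libraries was counted per gene. The authors deposited raw fragment counts, made per the methods and processing notes by aligning read pairs to *X. tropicalis* gene models (assembly v7.1, Bowtie2 2.1.0) and counting those with a single target, without strand. The methods also name EST assemblies outside the genome as an alignment target. Gene models and ontology terms came from the deposited annotation. Unaligned, ribosomal and mitochondrial entries name no gene and were left out (unaligned, 27.3% to 34.0%).

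Libraries were normalized by TMM in edgeR 4.0.16 (R 4.3.3). Each experiment was fitted with stage and condition, or with all groups for stage and interaction tests, and tested with edgeR's quasi-likelihood F-test. Benjamini-Hochberg adjustment covered each gene that had any count, which was 25209 for the KD, 24952 for the KO and 25774 for the joint model. A call needed an FDR of at most 10% and a mean normalized count above 7 over the libraries other than *t*/*t2* MO and *t*/*t2* KO (17987 genes). CPM are TMM-normalized. Ratios within clutches used a prior count of 0.5. The procedure was tested on simulated data, whose outcome is not given here and is not used for any call.

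Libraries of a number share a clutch. Their deviations from group means correlated with a mean r of 0.301 (KD) and 0.293 (KO, 45 pairs each), against -0.208 and -0.205 between clutches. Deviations from a group mean cancel within the group, which by itself lowers the values between clutches, so these are not a neutral baseline. The design without the block, as in the study's methods, was kept.

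Genes and lists were chosen with earlier results of these data known. Genes named are those past 1.5-fold in any comparison, the 3 largest rises and falls of each with the same sign in every pair, and the catalytic subunits, variants, activators, inhibitor and chaperones. Alternatives were DESeq2 1.42.0, its size factors, a fit to the compared conditions only, a filter before the fit, a replicate block (the clutch), an FDR of 1% and leaving out each clutch. Leaving out the uninjected stage 26 library of frog F alone and cMO embryos in place of uninjected ones were added after seeing the data. Protein and promoter sequences were not used here. Figures were drawn with matplotlib 3.10.9.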

Additional observations from a re-analysis of the deposited data

Results flagged for a closer look

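The effect of the *t*/*t2* MO differed between stages 26 and 34 for 17 proteasome genes by the interaction test. It was lower at stage 34 for 16 of the 42 genes and higher for 1, against 5.34% and 4.45% of all genes. The differences (stage 34 minus stage 26, log2) were -0.67 for *psmg2*, -0.63 for *psmd14*, -0.51 for *psmd7*, -0.49 for *psma4*, -0.47 for *psmc2* and -0.40 for *psma2*. They were -0.38 for *psmc3*, -0.37 for *psmb2*, *psmc1* and *psmd8*, -0.36 for *psmd2*, -0.35 for *psma5*, -0.34 for *psmd1* and -0.30 for *psmd6*, *psma7* and *psmc4*. The inhibitor *psmf1* had 0.81. By edgeR's quasi-likelihood test 0 calls were made without frog E or without frog F, where fewer of all genes passed as well.

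The effects of the *t*/*t2* MO and of the *t*/*t2* KO differed for 7 genes in the joint model of both experiments. Of the 42 genes 2 were higher and 5 lower, near the shares of all genes (7.17% and 9.39%). The differences (KD minus KO, log2) were -1.52 for *psmf1*, -1.27 for *psmd13*, -0.68 for *psmg3*, -0.36 for *psma5*, -0.33 for *psme3*, 0.25 for *psma6* and 0.63 for *psmd5*.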

How the results depend on the processing

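Of 795 values of single genes under the alternatives, 650 kept their call and direction, 144 lost the call and 1 reversed. The last was the stage change of *psmc4*, -0.0054 in cMO embryos against 0.16 in uninjected ones. With clutches left out in turn, 0 to 1 genes were called for cMO against uninjected, 6 to 10 for *t*/*t2* MO against uninjected and 7 to 9 against cMO (9, 7 and 9 without frogs D, E and F, against 15). The range was 27 to 31 for stage in uninjected and 2 to 7 in wild-type embryos, 0 to 12 for the stage dependence of the *t*/*t2* MO effect and 4 to 7 for its difference from the *t*/*t2* KO effect. At an FDR of 1% these counts were 0, 8, 6, 27, 0, 0 and 4. For the stage dependence, 3 passed without the uninjected stage 26 library of frog F and 3 with cMO embryos as control, and 1.31% and 1.82% of all genes passed without frogs E and F, against 9.79%. Fewer libraries entered the fits without a clutch, and the causes were otherwise not tested. With the clutch as a block, 11 genes were called for *t*/*t2* MO against uninjected, 9 for stage in wild-type embryos and 22 for the stage dependence (DESeq2, 25), and the block ended no call and left the other counts as they were. Genes with few counts (*psme2*, *psmf1*, *psmg3*) are limited by depth.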
